A study of Mus musculus with 19 samples.

Results

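The mouse mitochondrial genome carries 37 genes, and all 37 were found among the 46078 rows of the normalized count table, by matching each row's Ensembl identifier to the mitochondrial chromosome in the GENCODE vM21 annotation (GRCm38). They comprised 13 mRNAs, 2 rRNAs and 22 tRNAs, and no measured value was used to choose them. RNA-seq had been performed on 19 mouse samples, namely 3 mammary glands of wild-type mice (MG-WT), 4 glands each from N mice (MG-N) and NP mice (MG-NP), and 4 tumors each from N mice (T-N) and NP mice (T-NP). The comparisons asked how glands of mice carrying the MMTV-neu oncogene differ from wild-type glands, how tumors differ from glands, and whether a mutant p53 made in fibroblasts changes either.

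All N and NP mice carried MMTV-neu, which drives the neu (ERBB2) receptor from a promoter active in mammary epithelium. The NP genotype was MMTV-neu;p53wm-R172H/+;Fsp-Cre, in which Cre expressed in fibroblasts switches the conditional p53 allele from wild type to the R172H mutant. T-N mice were MMTV-neu;Fsp-Cre, with no conditional allele. The MG-N group was mixed, since replicate 1 was MMTV-neu;Fsp-Cre and replicates 2, 3 and 4 were MMTV-neu;p53wm-R172H/+ without Cre, so that T-N and MG-N differ in genotype as well as in tissue. MG-N and MG-NP glands came from mice that bore tumors, and showed no malignant lesion themselves. N and NP mice had a mixed FVB, C57 and BALB/c background. The wild-type mice were matched in age, and neither their strain nor an age is given in the sources used here.

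The mitochondrial genome is a compact circle that is transcribed on both strands into long precursors, which are cut at the tRNAs that separate most other genes. Its mRNAs encode core subunits of respiratory complexes I, III and IV and of ATP synthase (complex V), while every other subunit, and every protein that transcribes, cuts and translates these RNAs, is encoded in the nucleus. mt-Nd6 is the sole mRNA read from the light strand, and the others, with both rRNAs, come from the heavy strand promoter. Mammalian nuclear genomes also hold pieces of mitochondrial DNA, and an RNA-seq read from a mitochondrial gene with a perfect nuclear copy has more than 1 possible origin.

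Such copies were looked for first, because they bear on which members could be measured. Each mRNA and rRNA was split into all its windows of 75 bases, the read length, and each window was searched among 141730 annotated transcripts. Only exact matches were counted, so a less perfect copy, of the rRNAs too, would be missed. mt-Co2 and mt-Atp6 had 99.51% of their windows in another annotated transcript, mt-Co3 99.86%, mt-Nd4l 98.65% and mt-Nd3 97.81%. mt-Nd4 had 61.5%, mt-Co1 39.84%, mt-Nd2 5.71% and mt-Nd5 1.66%, and mt-Nd1, mt-Atp8, mt-Nd6, mt-Cytb and both rRNAs had none. The main copies were pseudogenes annotated next to each other on the minus strand of chromosome 1, running from Gm28439 at chr1:24611535-24612410 to Gm29216 at chr1:24615706-24616197. They were named here after their values were seen, and DNA lying between annotated genes was not searched.

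Stretches of mitochondrial genes are given with their nuclear copies to show what a read could and could not tell apart (GRCm38, each 5′ to 3′ on the gene's own strand). The first pair, from the complex IV subunit gene mt-Co2 (chrM:7316-7390) and its copy Gm28661 (chr1:24615188-24615262, minus strand), is identical, as were all 681 bases compared.
mt-Co2: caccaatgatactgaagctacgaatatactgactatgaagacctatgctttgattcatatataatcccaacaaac
Gm28661: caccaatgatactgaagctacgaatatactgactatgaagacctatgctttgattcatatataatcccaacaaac
The starts of the complex I subunit gene mt-Nd3 (chrM:9459-9533) and of its copy Gm28438 (chr1:24613045-24613119, minus strand) differ by a single substitution, T3C counted from the first base of mt-Nd3 and shown as a capital, and it was the only difference over 345 bases.
mt-Nd3: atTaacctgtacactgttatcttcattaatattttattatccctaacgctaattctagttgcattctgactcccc
Gm28438: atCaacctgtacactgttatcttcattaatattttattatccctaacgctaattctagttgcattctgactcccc
mt-Co1, the catalytic subunit of complex IV, is matched by Gm29216 only near its 3′ end (chrM:6381-6455 and chr1:24616123-24616197, minus strand), with 6 substitutions in 492 compared bases, all of them within the stretch shown and in capitals.
mt-Co1: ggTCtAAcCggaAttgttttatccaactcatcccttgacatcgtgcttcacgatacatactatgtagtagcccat
Gm29216: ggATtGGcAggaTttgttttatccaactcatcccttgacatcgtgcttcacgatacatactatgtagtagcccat
By contrast, no window of mt-Nd6, on the light strand (first bases at chrM:13996-14070, minus strand), or of mt-Rnr2, the 16S rRNA (first bases at chrM:1094-1168), was found in another annotated transcript.
mt-Nd6 start: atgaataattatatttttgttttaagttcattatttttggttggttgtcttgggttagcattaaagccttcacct
mt-Rnr2 start: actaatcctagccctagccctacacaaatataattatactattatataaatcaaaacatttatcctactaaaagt

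The 5 mRNAs with over 90% of their windows elsewhere were counted at a small fraction of the level of the other 8. Expressed per kilobase of gene, the median of their group means lay between 5.39 in T-NP and 27.8 in MG-NP, whereas that of the other 8 mRNAs lay between 811.9 in T-NP and 10760 in MG-NP. mt-Co2 ranged from 1.22 to 49.1 normalized counts over the 19 samples and mt-Atp6, a subunit of ATP synthase, from 1.12 to 59.4. mt-Nd4l was at 0 in 18 samples and reached 2.13 in MG-WT replicate 1. Across the 13 mRNAs, which share their libraries and are not independent replicates, the share of windows found elsewhere and the mean count per kilobase had a Spearman's rho between -0.706 in T-NP and -0.608 in MG-WT. Counts were low in the copies as well, and Gm28661, Gm10925 and Gm28437, the copies of mt-Co2, mt-Atp6 and mt-Co3, had medians of 0.853, 0 and 2.02 normalized counts. How reads with more than 1 possible origin were handled is not given in the sources used here, and its part in these low values was not tested.

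**Figure D1:**
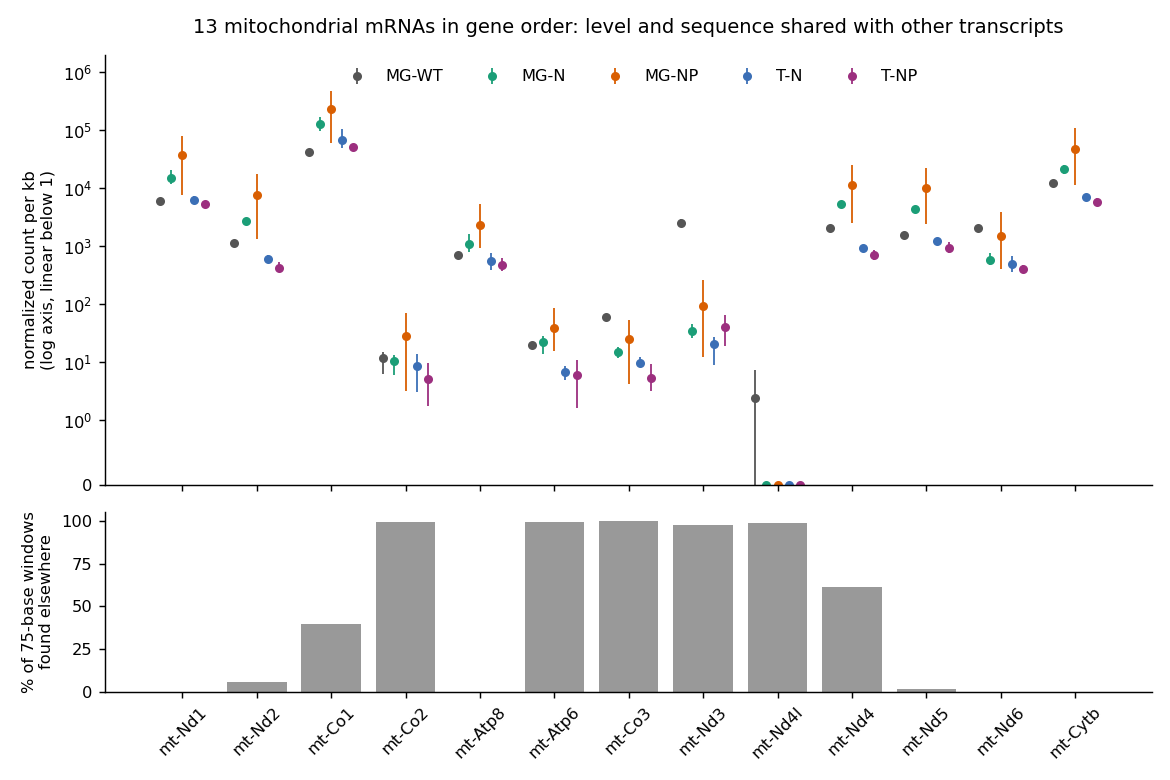
Upper panel, normalized count per kilobase (log axis, linear below 1) of the 13 mitochondrial mRNAs in the order of the genome, with points for group means and bars from the lowest to the highest sample (n = 3 for MG-WT, n = 4 for the other groups). Lower panel, percent of each mRNA's 75-base windows that occur in another annotated transcript. The 5 genes with bars near the top have the lowest counts, except mt-Nd3 in MG-WT, at a mean of 2504 per kilobase.

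mt-Nd3 in wild-type glands departed from that pattern. It was counted at 780.9, 809.8 and 1024 in the 3 MG-WT samples, and at most at 90.4 in the other 16, so the groups did not overlap. mt-Co3, which encodes another complex IV subunit, was at 43.9, 46.4 and 53.7 in MG-WT, against 9.27 to 14.1 in MG-N and 3.25 to 41.3 in MG-NP. MG-WT libraries also differed from the rest in depth, with 54677315 to 62645459 reads against 20899152 to 27262440 in the other 16. They held 9.81 to 11.5% of their counts in the nuclear noncoding RNA gene Gm26917, against 0.365 to 3.43% elsewhere. Between 0.0680 and 0.0778% fell in small nuclear and nucleolar RNA genes, against 0.457 to 4.42% elsewhere. The 9 white adipocyte genes summed to 0.00699 to 0.0108% in MG-WT and 1.17 to 1.64% in MG-N, the 9 luminal epithelial genes to 0.280 to 0.323% and 0.0608 to 0.113%, and the 7 immediate-early genes to 1.19 to 1.53% and 0.00802 to 0.0181%, with no gene of these lists at 0 in a whole group. In MG-WT 3 of the 9 adipocyte genes reached 10 normalized counts in every sample, and in MG-N all 9 did. The part of these differences in any result against MG-WT was not tested. The strain of the wild-type mice is not given. Genotype, strain, depth and the makeup of the libraries cannot be told apart in the comparisons against MG-WT.

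As a share of each sample's total, mitochondrial mRNAs were highest in the glands of MMTV-neu mice. They made up 0.342, 0.333 and 0.355% of counts in MG-WT. In MG-N the shares were 1.24, 0.782, 1.04 and 0.990%, and in MG-NP 1.12, 1.62, 0.531 and 2.96%. Every gland of an MMTV-neu mouse was therefore above every wild-type gland, and the MG-NP samples spread over the whole MG-N range and beyond it at both ends. The T-N tumors held 0.341, 0.679, 0.383 and 0.386%, and the T-NP tumors 0.391, 0.365, 0.331 and 0.325%. All 8 tumors were below all 4 MG-N glands and 7 were below every MG-NP gland. In whole tissue, fewer cells rich in mitochondria and less mitochondrial RNA per cell cannot be told apart.

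**Figure D2:**
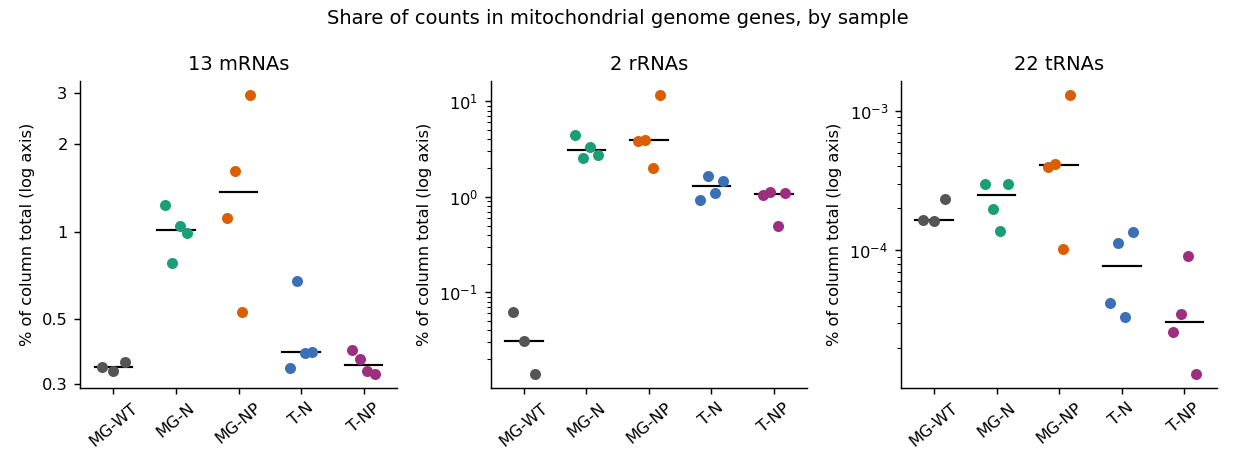
Percent of each sample's total normalized count in the 13 mRNAs, 2 rRNAs and 22 tRNAs of the mitochondrial genome (log axes), with points for samples and black lines for group medians. The highest mRNA and rRNA shares are in MG-NP and MG-N, and the rRNA share of the 3 MG-WT glands, at most 0.0628%, lies below that of all 16 other samples.

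The rRNAs showed a far wider range. mt-Rnr1 (12S, chrM:70-1024) and mt-Rnr2 (16S, chrM:1094-2675) build the small and the large subunit of the mitochondrial ribosome. Together they took 0.0628, 0.0312 and 0.0141% of counts in the MG-WT samples, and 4.45, 2.55, 3.36 and 2.76% in MG-N. In MG-NP they took 3.87, 3.93, 2.02 and 11.6%. T-N tumors were at 0.916, 1.66, 1.10 and 1.47% and T-NP tumors at 1.04, 1.13, 0.490 and 1.10%, so each tumor stood below every gland of an MMTV-neu mouse and above every wild-type gland.

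mt-Rnr2 was counted at 8713, 3502 and 1210 in MG-WT, and at 1014979, 542755, 692605 and 564248 in MG-N. mt-Rnr1 was at 8073, 4815 and 2767 in MG-WT, and at 168704, 123754, 139706 and 103599 in MG-N. Both were lower in every wild-type gland, to an unequal extent, and the ratio of mt-Rnr1 to mt-Rnr2 was 0.926, 1.38 and 2.29 there against 0.124 to 0.228 in the other 16 samples. The ratio of rRNA to mRNA counts was 0.184, 0.0936 and 0.0396 in MG-WT and between 1.48 and 3.94 elsewhere. The labels name a total RNA library kit and the study's methods an mRNA kit, and whether the 3 MG-WT libraries were prepared like the rest is not given in the sources used here.

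**Figure D3:**
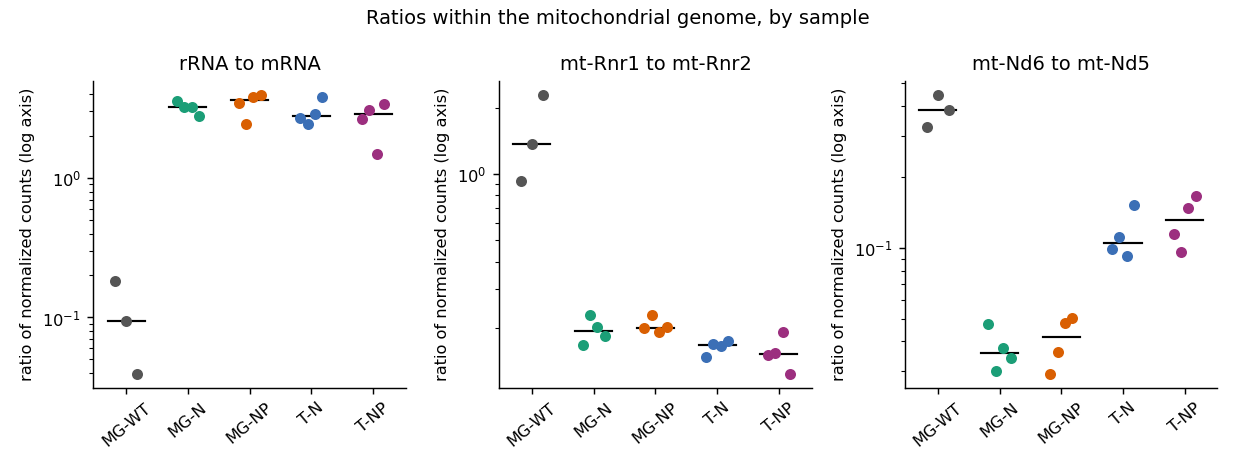
Ratios of normalized counts within the mitochondrial genome in each sample (log axes), namely rRNA to mRNA, mt-Rnr1 to mt-Rnr2, and mt-Nd6 (light strand) to mt-Nd5 (heavy strand), with black lines for group medians. The 3 MG-WT glands stand apart in all 3 ratios, and the 8 tumors lie above the 8 MG-N and MG-NP glands in the ratio of mt-Nd6 to mt-Nd5.

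MG-N libraries had higher counts of most well-measured mitochondrial mRNAs than MG-WT libraries, and lower counts of mt-Nd6. As said above, genotype cannot be told apart here from depth and the makeup of the libraries. Of 16 members with at least 10 normalized counts in enough samples to be tested, 8 were called higher and 4 lower in MG-N than in MG-WT (limma on log2 of the normalized count plus 1, Benjamini-Hochberg adjusted p under 0.05 and at least 2-fold), where 19.1% and 17.9% of the 19017 genes tested were called higher and lower. The called mRNAs that rose were mt-Co1, mt-Nd1, mt-Nd2, mt-Nd4 and mt-Nd5, the last 4 encoding complex I subunits. Those that fell were mt-Nd3, mt-Co3 and mt-Nd6. The median log2 difference of the 11 mRNAs tested, with mt-Nd3, mt-Co3 and mt-Atp6 among them, was 0.80, against 0.02 over all genes tested. For 14 of the 16 members, and for 61.3% of all genes tested, every sample of one group lay beyond every sample of the other.

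mt-Co1, the mRNA with the most counts in every group, was at 62848, 62237 and 69552 in MG-WT and at 260684, 149128, 200219 and 191243 in MG-N. All 4 MG-N values lay above the 3 wild-type values, with a log2 difference of 1.60 ± 0.23 (SE) and a limma adjusted p of 0.000633. mt-Nd5 was at 3039, 2531 and 2866 in MG-WT and at 8383, 8567, 7877 and 7161 in MG-N. That difference, 1.51 ± 0.11 on the log2 scale, had a limma adjusted p of 2.21e-05. mt-Nd1 and mt-Nd4 rose by 1.31 ± 0.20 and 1.36 ± 0.11 on the log2 scale. mt-Cytb, the mitochondrially encoded subunit of complex III, was at 13548, 13260 and 15182 in MG-WT and at 28598, 23848, 25617 and 20001 in MG-N, and its log2 difference of 0.80 ± 0.15 (limma adjusted p = 0.00221) was under 2-fold. For each of these 5 genes the exact two-sided permutation test gave 0.0286, the smallest p that 3 against 4 samples allow.

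mt-Nd6 went the other way. It was at 995.4, 1131 and 1109 in MG-WT and at 398.7, 256.3, 296.8 and 244.1 in MG-N, with every MG-N sample lower (log2 difference -1.87 ± 0.18, limma adjusted p = 8.17e-05). Its ratio to mt-Nd5, from the opposite strand, was 0.327 to 0.447 in MG-WT and 0.0299 to 0.0476 in MG-N. The ends of these 2 genes overlap by 14 bases, shown in capitals (chrM:13522-13595, plus strand).
mt-Nd5 and mt-Nd6 junction: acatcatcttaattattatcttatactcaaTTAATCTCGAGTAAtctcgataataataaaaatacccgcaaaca
Because it is not given whether reads were counted by strand, mt-Nd6 reads cannot be told apart from reads of the heavy-strand RNA that runs across the same bases.

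The same comparison for NP mice gave differences with larger standard errors. In MG-NP 8 of 18 tested members were called higher and 1 lower than in MG-WT, where 16.4% and 16.2% of the 19065 genes tested were called in these directions. Ranges did not overlap for 12 of the 18, and for 54.4% of all genes tested. mt-Co1 was at 197475, 413100, 93178 and 730272 in the 4 MG-NP samples, all above the wild-type glands, with a log2 difference of 2.07 ± 0.65 and a limma adjusted p of 0.0336. mt-Nd5 was at 10233, 17440, 4352 and 40437 (2.25 ± 0.66, limma adjusted p = 0.0274). mt-Nd6 was at 298.5, 628.1, 208.0 and 2029, with replicate 4 above all wild-type values, and it was not called (limma adjusted p = 0.271). mt-Rnr1 and mt-Rnr2 were higher by 5.46 ± 0.72 and 8.26 ± 0.86 on the log2 scale. The number of members called fell from 9 to 3 without MG-NP replicate 2, to 5 without MG-NP replicate 1 and to 4 without any 1 of the MG-WT samples.

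Genes of skeletal muscle also varied widely within MG-NP. The 24 muscle genes, such as the fast myosin Myh4 and the muscle creatine kinase Ckm, summed to 3.69, 19.9, 0.135 and 11.5% of counts in MG-NP, of which 22 reached 10 normalized counts in every sample and none was at 0. The same list summed to 0.00527 to 0.00812% in MG-WT, to 0.0208 to 0.199% in MG-N and to at most 0.207% in the tumors. Of the 24 genes 22 were called higher and none lower in MG-NP than in MG-WT, and 17 higher and 1 lower in MG-N, with medians of 9.76 and 4.45 on the log2 scale. The 8 brown adipocyte genes summed to at most 0.00085% in MG-WT, to 0.00533 to 0.0131% in MG-N and to 0.00918 to 0.253% in MG-NP, and all 8 were called higher in MG-N and 5 of the 7 tested in MG-NP. Cox7a1, Cox8b and Ppargc1a, described among the nuclear genes for mitochondria, belong to the brown adipocyte list as well. Replicates 2 and 4, with the most muscle transcripts, also had the highest mitochondrial mRNA shares, and replicate 3, with the least, had the lowest. The order was not the same throughout, since replicate 2 had more muscle transcripts than replicate 4 and a lower mRNA share. The rRNA shares of replicates 1 and 2 were close, at 3.87 and 3.93%. In MG-N, replicate 2 had the highest muscle share, 0.199%, and the lowest mRNA share, 0.782%. The part of muscle or brown fat in these values was not tested. Replicate 4 further had 56926 normalized counts of Ucp1, the uncoupling protein of brown fat, against at most 1967 in the other 18 samples. Without replicates 2 and 4, a choice made after the data were seen, 4 members were called higher and 3 lower in MG-NP than in MG-WT.

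**Figure D4:**
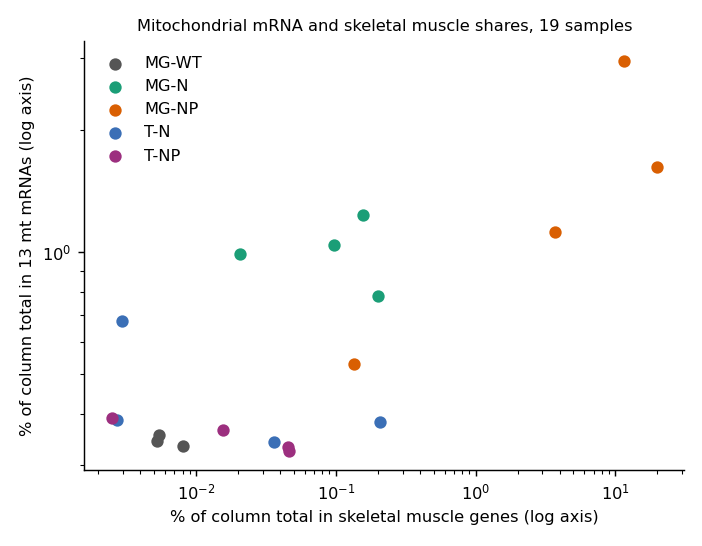
Percent of each sample's counts in the 13 mitochondrial mRNAs against the percent in 24 skeletal muscle genes (log axes), with a point for each of the 19 samples, colored by group. The MG-NP samples at 11.5 and 19.9% muscle genes have the highest mitochondrial mRNA shares, 2.96 and 1.62%.

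Tumors held less mitochondrial mRNA and rRNA than the glands of the same genotype class. In T-N against MG-N 7 of 11 tested members were called, all lower, where 22.3% of the 17950 genes tested were called lower and 12.8% higher. Ranges did not overlap for 8 of the 11, and for 49.2% of all genes tested. mt-Nd4, a complex I subunit, was at 8106, 7283, 6889 and 6627 in MG-N and at 1222, 1380, 1410 and 1152 in T-N. The groups lay far apart, with a log2 difference of -2.48 ± 0.12 (limma adjusted p = 1.94e-05). mt-Nd2 was at 3174, 2939, 2678 and 2459 in MG-N and at 527.2, 718.6, 592.8 and 638.4 in T-N (-2.18 ± 0.14, limma adjusted p = 3.93e-05).

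mt-Nd5, mt-Cytb and mt-Nd1 fell by 1.84 ± 0.13, 1.58 ± 0.15 and 1.27 ± 0.20 on the log2 scale in T-N. The rRNAs were also lower, with log2 differences of -1.46 ± 0.30 for mt-Rnr1 (limma adjusted p = 0.00399) and -1.21 ± 0.44 for mt-Rnr2 (limma adjusted p = 0.0444). The call of mt-Rnr2 was lost without any 1 of the samples other than T-N replicate 2, with limma adjusted p between 0.0501 and 0.0814. mt-Atp8, a short subunit of ATP synthase, was at 80.7 to 153.8 in T-N and 162 to 328.6 in MG-N (-0.91 ± 0.30, limma adjusted p = 0.0302), under 2-fold. mt-Co1 was at 75722, 163266, 86576 and 88395 in T-N, where replicate 2 overlapped the MG-N range, and its difference of -0.99 ± 0.34 (limma adjusted p = 0.0365) was just under 2-fold. The mt-Co1 difference was called without T-N replicate 2, at -1.24 (limma adjusted p = 0.00976), and without MG-N replicate 2, at -1.13 (limma adjusted p = 0.0376). mt-Nd6 was at 188.6, 279.2, 206.0 and 352.5 in T-N, a range that overlapped MG-N (-0.24 ± 0.26, limma adjusted p = 0.467). mt-Nd6 was 0.0925 to 0.153 of mt-Nd5 in T-N. Whether mt-Nd6 changed less than the heavy-strand mRNAs was not tested by a model.

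T-NP tumors differed from MG-NP glands in the same direction. Of 12 tested members 10 were called, all lower, where 24.0% of the 17880 genes tested were called lower and 14.7% higher. mt-Nd4 was at 8529, 17800, 3456 and 34092 in MG-NP and at 1015, 1177, 872.8 and 792.8 in T-NP (-3.60 ± 0.60, limma adjusted p = 0.00127). mt-Nd2 fell by 3.58 ± 0.69 on the log2 scale, and the log2 difference of mt-Cytb was -2.51 ± 0.59. mt-Co1 was at 87317, 83410, 75461 and 76664 in T-NP (-1.76 ± 0.59, limma adjusted p = 0.0311). mt-Atp6, with 99.51% of its windows elsewhere, was also among those called (-2.28 ± 0.64, limma adjusted p = 0.015). Its MG-NP samples alone met the filter, so this call partly follows from that choice. mt-Atp6 did not pass the filter in T-N against MG-N or in T-NP against T-N. All 10 members called, and 52.6% of all genes tested, had ranges that did not overlap. mt-Nd6 (-1.32 ± 0.62, limma adjusted p = 0.099) and mt-Nd3 (-0.42 ± 0.83, limma adjusted p = 0.689) were not called. Once a skeletal muscle score (the mean log2 value of the 24 genes) was added to the model no member was called in this comparison, but the score ran from 8.39 to 15.96 in MG-NP and from 3.48 to 7.76 in T-NP, so that it and the tissue cannot be told apart. Without MG-NP replicates 2 and 4, 7 members were still called lower.

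**Figure D5:**
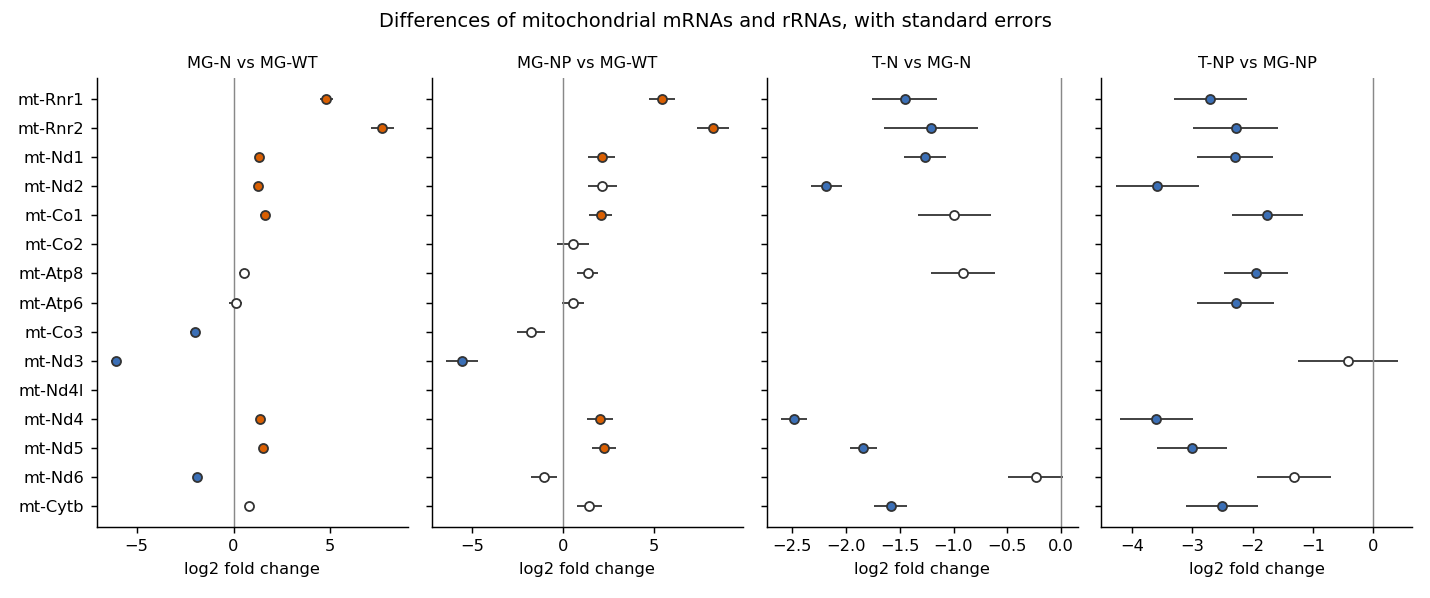
Log2 fold change of the normalized count plus 1, with standard errors from limma, of the mitochondrial rRNAs and mRNAs in 4 comparisons (the horizontal scales differ between panels). Filled points were called higher (orange) or lower (blue), open points were not called, and genes with no point were below the filter. Both tumor panels lie left of 0, with mt-Nd4 at -2.48 and -3.60.

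Other cell types moved with the step from gland to tumor. The white adipocyte genes fell from 1.17 to 1.64% of counts in MG-N and 0.451 to 1.06% in MG-NP to at most 0.0257% in the tumors, while the luminal epithelial genes were at 0.333 to 0.637% in T-N and 0.375 to 0.478% in T-NP. Basal epithelial genes were at 0.00493 to 0.0179% in the tumors and 0.0254 to 0.0916% in MG-N and MG-NP glands. In T-N against MG-N 6 of the 9 luminal genes were called higher and 2 lower (from -5.14 to 3.62 on the log2 scale), and in T-NP against MG-NP 7 and 2. Lists of other stromal and immune cells also fell, with 5 of 5 T cell, 4 of 4 B cell, 5 of 5 endothelial, 6 of 8 fibroblast and 4 of 6 macrophage genes called lower and none higher in T-N than in MG-N (medians -3.55, -4.36, -2.23, -3.15 and -1.69). In T-NP against MG-NP 4 of 5, 4 of 4, 5 of 5, 4 of the 7 tested and 3 of 6 were lower, in the same order, and none was higher. The part of these cell types in the lower mitochondrial RNA of tumors was not tested.

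The mRNAs also differed in their proportions. mt-Co1 made up 68.8 to 70.1% of mitochondrial mRNA counts in MG-WT, 72.8 to 80.0% in MG-N, 71.1 to 75.7% in MG-NP and 81.5 to 88.6% over the 8 tumors. Counts were therefore also set against the windows of each gene found nowhere else. That scale takes reads from shared windows to be uncounted, which is not known. If they were counted, genes with shared windows are overstated, most of all mt-Nd4 (61.5% shared) and mt-Co1 (39.84%). On that scale, per 1000 such windows, MG-N glands had 226348 ± 51973 normalized counts (SD, n = 4) of mt-Co1, 22912 ± 3357 of mt-Cytb, 16397 ± 4220 of mt-Nd1, 14395 ± 1285 of mt-Nd4, 4647 ± 365.6 of mt-Nd5, 3094 ± 341.7 of mt-Nd2, 1680 ± 575.0 of mt-Atp8 and 671.8 ± 157.7 of mt-Nd6. In that order the samples of mt-Cytb and mt-Nd1 overlapped, as did those of mt-Nd1 and mt-Nd4, and the other neighbors did not. In T-N the order had mt-Cytb (7600 ± 618.7) and mt-Nd1 (6698 ± 898.0) close together and mt-Nd4 lower, at 2572 ± 247.0. The ratio of mt-Nd4 to mt-Cytb counts was 0.262 to 0.346 over the 8 glands of MMTV-neu mice, 0.187 to 0.218 in MG-WT and 0.124 to 0.168 in the 8 tumors.

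No member was called between the genotypes. In MG-NP against MG-N 0 of 17 tested members passed by limma, edgeR or DESeq2, where the share of the 18563 genes tested that was called was 0% by limma, 0% by edgeR and 2.77% by DESeq2. Limma called 297 genes higher and 21 lower without MG-NP replicate 3, none of them a member. At an unadjusted p under 0.05 there were 0 members and 10.5% of all genes. The differences of 16 of the 17 were positive, with mt-Co1 at 0.47 ± 0.65 and mt-Nd1 at 0.82 ± 0.67 on the log2 scale, and no member had ranges that did not overlap (6.21% of all genes tested did). In T-NP against T-N 0 of 10 were called by limma, edgeR or DESeq2, where 0.0421%, 0% and 0.511% of all genes were called by these tools. No member had ranges that did not overlap (4.21% of all genes). All 10 differences were negative, 3 of them at an unadjusted p under 0.05 (7.27% of all genes), namely mt-Nd2 at -0.51 ± 0.18, mt-Nd4 at -0.43 ± 0.16 and mt-Nd5 at -0.43 ± 0.17 on the log2 scale. An interaction term asked whether the difference between tumor and gland differs between the genotypes, with 0 of 17 members called by limma (lowest adjusted p = 0.684), 0 at an unadjusted p under 0.05 (7.93% of all genes), and 0% of the 19367 genes tested called. T-NP replicates 1 and 2 carry the same animal number in their names, and whether they are 2 tumors of 1 mouse is not given in the sources used here, so that 4 T-NP samples may stand for 3 animals. They differed by more than sampling noise, with a chi-square per gene of 42.2, the lowest of the 27 pairs within groups (69.3 to 695.0 in the others). With both averaged into 1 sample, 0 members were called in T-NP against T-N and 9 in T-NP against MG-NP, all lower.

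The tRNAs were barely measured. They are 59 to 75 bases long, at or below the read length, and summed to at most 0.00131% of counts in any sample. Of the 22 tRNAs 11 were at 0 in all 19 samples, 8 reached 10 normalized counts in some sample, and none did in every sample. Of the 8 on the minus strand 7 had at least 1 read, and of the 14 on the plus strand 4, namely mt-Ti, mt-Tm, mt-Tw and mt-Tt. A count of 0 allows up to 3 reads in a library, for counting error only.

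The 2 tRNAs called in MG-N against MG-WT, shown whole, lie next to each other on opposite strands after mt-Cytb, and were singled out after their values were seen (mt-Tt at chrM:15289-15355, plus strand, and mt-Tp at chrM:15356-15422, minus strand).
mt-Tt start: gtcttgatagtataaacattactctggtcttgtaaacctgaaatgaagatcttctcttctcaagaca
mt-Tp start: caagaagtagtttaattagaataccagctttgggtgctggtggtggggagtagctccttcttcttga
mt-Tt, the threonine tRNA, was at 0.426, 0.976 and 0 in MG-WT, with no more than 2 reads in a library, and at 19.1, 23.0, 9.39 and 26.8 in MG-N. Against a floor of 3 reads per library its group mean was at least 12.6-fold higher in MG-N and at least 12.7-fold higher in MG-NP (limma adjusted p = 0.000236 and 0.00145). mt-Tt passed the filter only through its MG-N and MG-NP samples, so these calls partly follow from that choice. mt-Tp, the proline tRNA, was at 18.3, 26.8 and 40.8 in MG-WT and at 14.0, 10.3, 3.76 and 5.15 in MG-N, where it was called lower (-1.75 ± 0.49, limma adjusted p = 0.0147). In MG-NP, mt-Tp was at 22.9, 47.1, 2.17 and 127.8, and it was not called (limma adjusted p = 0.945). mt-Tm, the methionine tRNA, was at 2.56, 1.46 and 0 in MG-WT and at 11.4, 31.4, 3.25 and 86.5 in MG-NP, where it was called higher (3.25 ± 1.02, limma adjusted p = 0.0337). Here too the filter was passed only through MG-NP samples, so the call partly follows from that choice. The call was lost without any 1 of the MG-WT samples, and mt-Tm no longer passed the filter without MG-NP replicate 1, 2 or 4. mt-Tm did not pass the filter in MG-N against MG-WT. MG-NP replicate 4 also had the highest count of mt-Tw, at 117.5.

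Of the nuclear genes for the same complexes, most were called against MG-WT and few between tumor and gland. Of 76 nuclear subunits of complexes I, III, IV and V, 64 of the 75 tested were called higher and none lower in MG-N than in MG-WT, beside 19.1% and 17.9% of all genes tested. In MG-NP 69 of 76 were called higher and none lower, beside 16.4% and 16.2%. Their median log2 differences were 1.51 and 2.04, against 0.02 over all genes in both comparisons. In T-N against MG-N 3 of 76 were called higher and none lower, with a median of 0.22, beside 12.8% and 22.3% of all genes. In T-NP against MG-NP 5 were called lower and none higher, with a median of -0.28, beside 24.0% and 14.7%. The medians of the mitochondrial mRNAs tested in those 2 comparisons were -1.43 and -2.29, and the difference between the 2 sets of genes was not tested.

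In MG-N, Atp5j2 and Atp5k, small subunits of ATP synthase, were higher than in MG-WT by 3.69 ± 0.12 and 3.69 ± 0.14 on the log2 scale. Cox8b, the muscle and brown fat form of a complex IV subunit, was at most at 0.976 normalized counts in MG-WT. Against a floor of 3 reads per library, its group mean was at least 399.3-fold higher in MG-N and at least 2053-fold higher in MG-NP. These bounds hold for the means only, since its samples ran from 355.0 to 855.1 in MG-N and from 544.8 to 8396 in MG-NP. Cox8b passed the filter in these comparisons only through MG-N and MG-NP samples. Cox6a2 and Cox7a1, also muscle forms of complex IV subunits, rose in MG-NP against MG-WT, Cox6a2 from at most 3.42 to between 13 and 4478 normalized counts and Cox7a1 from at most 12.8 to between 79.1 and 3671. Cox6a2 passed the filter there only through MG-NP samples. In the tumors Atp5g1 and Atp5g2, which encode the same ring subunit of ATP synthase, were higher in T-N than in MG-N (1.56 ± 0.16 and 1.24 ± 0.13), and Cox6a2 and Cox8b were lower in T-NP than in MG-NP (-6.63 ± 1.70 and -5.37 ± 0.76). The Cox6a2 difference changed sign once the muscle score was added, and was no longer called without MG-NP replicates 2 and 4 (-3.95, limma adjusted p = 0.0636). Of 4 complex II subunits, which are all nuclear, Sdhb was the 1 called lower in T-N, with 1389 ± 287.8 normalized counts against 3146 ± 95.2 in MG-N (SD, n = 4).

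Of 62 nuclear genes for mitochondrial DNA replication, transcription, RNA processing, translation and biogenesis, 7 were called higher and 5 lower in MG-N than in MG-WT, beside 19.1% and 17.9% of all genes tested. In MG-NP 14 were higher and 3 lower, beside 16.4% and 16.2%. Among the rises was Ppargc1a, the coactivator PGC-1 alpha and a regulator of mitochondrial biogenesis, by 1.74 ± 0.20 on the log2 scale in MG-N (limma adjusted p = 0.00017) and by 3.19 ± 0.82 in MG-NP (limma adjusted p = 0.0167). Slirp, which stabilizes mitochondrial mRNAs, rose by 1.22 ± 0.16 and 1.28 ± 0.26. The largest called falls in MG-N were Esrrg and Pprc1, transcriptional regulators of mitochondrial genes (-2.09 ± 0.46 and -2.05 ± 0.22), and Polg2, the accessory subunit of the mitochondrial DNA polymerase (-1.78 ± 0.15). In MG-NP they were Pprc1 (-1.98 ± 0.29), Polg2 (-1.76 ± 0.18) and Gabpb1, a subunit of a nuclear respiratory factor (-1.22 ± 0.22). In T-N against MG-N 2 were higher and 1 lower, beside 12.8% and 22.3% of all genes, among them Esrrg (2.63 ± 0.48) and Ppargc1b, the coactivator PGC-1 beta (-2.79 ± 0.30). In T-NP against MG-NP 1 was higher and 1 lower, beside 14.7% and 24.0%. Ppargc1b was again the gene called lower (-3.14 ± 0.43), and the 1 called higher was 1110008L16Rik, the nuclease subunit of mitochondrial RNase P (1.27 ± 0.14).

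The core transcription machinery was among the genes that were not called between tumors and glands. Polrmt, the mitochondrial RNA polymerase, had 555.4 ± 110.3 normalized counts in MG-N (SD, n = 4) and 686.3 ± 86.3 in T-N, with a log2 difference of 0.32 ± 0.19 (limma adjusted p = 0.18). Tfam, which packages and activates mitochondrial DNA, had 941.3 ± 80.5 in MG-N and 1175 ± 72.4 in T-N (0.32 ± 0.12, limma adjusted p = 0.0515). For T-NP against MG-NP their log2 differences were -0.13 ± 0.16 and 0.17 ± 0.15. Polrmt, Tfam, Ppargc1a and Slirp were chosen for their role after results were known.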

How the data were processed

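RNA-seq of 19 samples was examined. The labels' processing notes name TopHat2 2.1.1, Bowtie2 and GRCm38. Libraries were read as 75-bp pairs per the study's methods. The counting tool, annotation and strand setting are not given in the sources used here. The authors deposited a signal table, counts divided by size factors, with 1 column per sample. All columns held whole multiples of a single step, so reads were recovered, and 100% of values were whole within 0.05 reads. In T-N replicate 3 that step nearly equals 1, so its values look like unscaled counts. Of 46078 identifiers 45143 matched GENCODE vM21.

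Log2(normalized count + 1) was fitted with limma 3.58.1 (trend) on the 2 groups compared, for genes with at least 10 normalized counts in as many samples as the smaller group holds. P-values were Benjamini-Hochberg adjusted over all genes tested. edgeR 4.0.16 and DESeq2 1.42.0 on recovered reads were alternatives, as were other scalings, filters and pseudocounts, a fit of all 5 groups, and samples left out. On the recovered reads edgeR called 12, 10, 7 and 11 members, and DESeq2 called 12, 12, 7 and 11, in MG-N and MG-NP against MG-WT, T-N against MG-N and T-NP against MG-NP. Fold changes on this scale understate low genes. The fits were run on simulated counts with known changes, drawn from T-N means with equal spread in both groups. That run does not show how the fits behave with a group as uneven as MG-NP or with genes near the filter. Shares and ratios were not tested. Samples are biological replicates per the study's methods. At 20899152 to 62645459 reads per sample, 3 reads was the floor.

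Named genes were all mitochondrial mRNAs and rRNAs and, per comparison, the 3 largest called rises and falls among nuclear genes for mitochondria. The members and lists were chosen with earlier results of these data known. Ndufb1 was not matched. The fits used 6 comparisons and an interaction term.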

Additional observations from a re-analysis of the deposited data

Results flagged for a closer look

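In groups of 4, a sample was looked at again when its gap to the nearest other sample took up most of the group's range (Dixon's 95% criterion), which chance alone meets in about 1 in 20 groups. Of 88 groups of values examined, 3 met it. T-N replicate 2 stood above the other T-N tumors in mt-Co1, at 163266 normalized counts, and in its mitochondrial mRNA share, at 0.679% of counts. T-NP replicate 3 stood below the other T-NP tumors in its rRNA share, at 0.490%. The mt-Co1 and mRNA share values are not separate observations, since mt-Co1 made up 88.6% of the mRNA counts in T-N replicate 2.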

How the results depend on the processing

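Against MG-WT, 12 members were called in MG-N and 9 in MG-NP; there were 7 in T-N against MG-N, 10 in T-NP against MG-NP, and 0 in both comparisons of genotype and in the interaction. Leaving out 1 sample at a time gave 11 to 13, 3 to 12, 6 to 10, 9 to 15, and 0 throughout. In T-NP against MG-NP, 16 were called lower with no filter on low values and 0 with the skeletal muscle score as a covariate, where Cox6a2 came to 0.342 on the log2 scale; the cause was not tested. Every other alternative that left out no sample stayed within 1.5 times of these numbers. Of 1310 single-gene values of members under alternatives, 0 that were called changed sign, 62 lost and 35 gained a call. Other scalings moved the median of all genes by up to 0.16 in MG-N against MG-WT, -0.14 in T-N against MG-N, 0.10 in T-NP against MG-NP, -0.15 in MG-NP against MG-N and 0.16 in the interaction on the log2 scale. No member's direction changed with them, and 7 members were called lower in T-N with TMM scaling and 10 with both scalings to the column total.

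Samples were not paired by replicate number in the main fits. In their library names, N and NP glands and tumors share no animal number. Same-numbered samples of 22 pairs had correlations of their deviations between -0.253 and 0.329, with 3 over 0.1, which cannot by themselves exclude pairing. The replicate block gave 11 called members for MG-N against MG-WT, 7 for MG-NP against MG-WT, 6 in T-N against MG-N, 10 in T-NP against MG-NP and 0 in the other comparisons.

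Without the 20 largest nuclear genes in the total, the mRNA share was 0.427% in MG-WT and 0.410% in T-NP, and the tRNA share 0.00023% in MG-WT. Leaving out samples gave mRNA shares of 0.337 to 0.349% in MG-WT, 0.938 to 1.09% in MG-N, 1.09 to 1.90% in MG-NP, 0.370 to 0.482% in T-N and 0.340 to 0.362% in T-NP. The rRNA shares were then 0.0226 to 0.0470%, 2.89 to 3.52%, 3.28 to 6.48%, 1.16 to 1.41% and 0.877 to 1.09%, in the same order of groups. The tRNA shares were 0.00016 to 0.00020%, 0.00021 to 0.00027%, 0.00030 to 0.00071%, 6e-05 to 0.00010% and 2e-05 to 5e-05%.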
